A study of Arabidopsis thaliana with 2 samples.

Results

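The plastid genome of Arabidopsis thaliana, the circular DNA kept inside each chloroplast, encodes core parts of the photosynthetic machinery, and 33 of its genes are described here: 15 psb genes of photosystem II, 5 psa genes of photosystem I, 6 pet genes of the cytochrome b6f complex, 6 atp genes of the ATP synthase and rbcL, the large subunit of Rubisco. They were chosen by their locus identifiers and are 33 of 31280 genes in a table of ribosome-bound RNA. The material was immature flower bud clusters of Arabidopsis accession Col-0, with no mutation, treatment or age named in the labels. The study made 1 library of ribosome-bound RNA and 1 library of single-stranded RNA from such buds, with no replicates. Ribosomes were pelleted and then separated on a sucrose gradient in buffers that held chloramphenicol, which halts plastid ribosomes, and cycloheximide, which halts cytosolic ribosomes. RNA of the pooled monosome and polysome fractions was depleted of ribosomal RNA, broken into fragments and sequenced.

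In a chloroplast, photosystem II, the cytochrome b6f complex and photosystem I pass electrons along the thylakoid membrane, the ATP synthase uses the resulting proton gradient, and Rubisco fixes carbon dioxide in the stroma. Each of these complexes is a mosaic: the plastid genome encodes the reaction-centre and other core subunits, and the nucleus encodes the rest, which are made on cytosolic ribosomes and imported. Plastid genes are often transcribed together as polycistronic RNAs and are translated by bacterial-type ribosomes, for which a purine-rich stretch upstream of the start codon can serve as a Shine-Dalgarno element.

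All 33 coding sequences begin with ATG in the reference plastid genome (RefSeq, build TAIR10.1). The start regions of genes from each complex are printed here because plastid ribosomes load there. They hold the 20 bases before the start codon and the start codon, on the coding strand. Capitals mark the start codon and any run of GGAG, GAGG or AGGA.
rbcL: tgacttgtagGGAGGgacttATG
psbA: aataaaccaAGGAttttaccATG
psbD: agatgaatAGGAGGAtcgctATG
psbF: gatctttttAGGAGGAcccaATG
psbB: gttgataaaggggtatttccATG
psbM: taataataaacgattaaattATG
psaA: tccggaaaGAGGAGGActcaATG
psaC: ttcaaaaaactatcgatcctATG
petB: gcattgtatatttccggaatATG
petD: ctatgaagagataatggattATG
atpH: tttggtgtGAGGAacttatcATG
atpB: tttaacatattttttttattATG

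One of these purine runs stood in the 20 bases before 17 of the 33 start codons (51.5%). The same search found one before 20 of 44 other plastid protein-coding genes (45.5%) and in 12.0% of all 308956 windows of that length on both strands of the plastid genome. The 3 motifs overlap one another, so a longer run such as the one at psbD holds several of them. By complex, the run was found at 7 of 15 psb genes, 4 of 5 psa genes, 0 of 6 pet genes, 5 of 6 atp genes and rbcL. The share was close in the 33 genes and in the other plastid genes, and no pet gene had a run. A match is a description of letters only and says nothing of how the ribosome binds. The median ribosome-bound level was 98.5 RPKM in the 17 genes with a run and 39.3 RPKM in the 16 without. The groups overlapped widely, from 7.18 (psaI) to 1678 RPKM (rbcL) with a run and from 3.65 (psbM) to 393 RPKM (psbC) without. All 6 pet genes are in the second group, and the parts of complex and gene length in this difference were not tested.

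The overlap between psbD and psbC, the genes of the photosystem II proteins D2 and CP43, is also shown because the RNA of the genes cannot be separated there. It covers 53 bases of the plus strand, from base 33720 to base 33772 of the plastid genome in TAIR10.1, and runs from the annotated psbC start codon to the psbD stop codon. Capitals mark the annotated ATG, the purine run found inside the overlap and a GTG codon that lies in the psbC frame 36 bases after the first base of the ATG. In tobacco, psbC is known to be translated from a GTG inside psbD.
psbD-psbC overlap: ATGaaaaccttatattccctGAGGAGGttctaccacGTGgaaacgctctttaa
No run was found before the annotated psbC ATG, so its place among the 16 genes without a run depends on which of these codons is taken as the start.

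Levels are given in RPKM, the deposited measure in which clones are scaled to the listed length of the transcript and to the total of mapped clones. The listed length is the coding sequence for the plastid genes and the whole mRNA for nuclear genes. A clone is a sequenced fragment, and the authors also deposited a weighted number of clones, which is lower than the plain number and from which RPKM follows. The total was 9574408 mapped clones. Intervals in brackets are 95% Poisson intervals by the exact formula, with the weighted clones treated as if they were counts. They cover counting error only. With 1 library there is no spread between replicates to compare with, so no test between conditions was possible and no p-value is given.

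Clones of all 33 genes were present in the ribosome-bound library. Their pooled level was 247.5 RPKM (245 to 250), from 64100 clones or 48555 weighted clones over 20490 bases. The median gene stood at 51.5 RPKM, and the genes ranged from 3.65 RPKM for psbM to 1678 RPKM for rbcL, a ratio of 460 (173 to 1824). The median of the 33 was 210 times that of the nuclear protein-coding genes with a value above 0, which was 0.246 RPKM. This fold rests on which genes enter: it was 79.6 among genes of at least 10 weighted clones, 130 among those with a mean weight of at least 0.5 and 401 among those of at least 300 bases. Nuclear lengths are whole mRNAs, and per coding length the fold was 162. The median of the plastid genes themselves was 93.0 RPKM in the 28 with at least 10 weighted clones and 98.5 RPKM in the 15 of at least 300 bases. All 33 lay above that nuclear median, as did 44.0% of nuclear protein-coding genes, and all 33 lay at least 10-fold above it, as did 5.02%. Of the 33, 23 were among the 100 highest genes of the table and 32 among the highest 1000. Floral tissue genes were on ribosomes in the same library: the petal and stamen identity genes PISTILLATA (PI) and APETALA3 (AP3) stood at 7.71 and 1.99 RPKM, and SEPALLATA3 (SEP3), a floral organ identity cofactor, at 2.57 RPKM. The buds are a mixture of tissues, so more green cells and more plastid RNA per cell cannot be told apart.

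**Figure D1:**
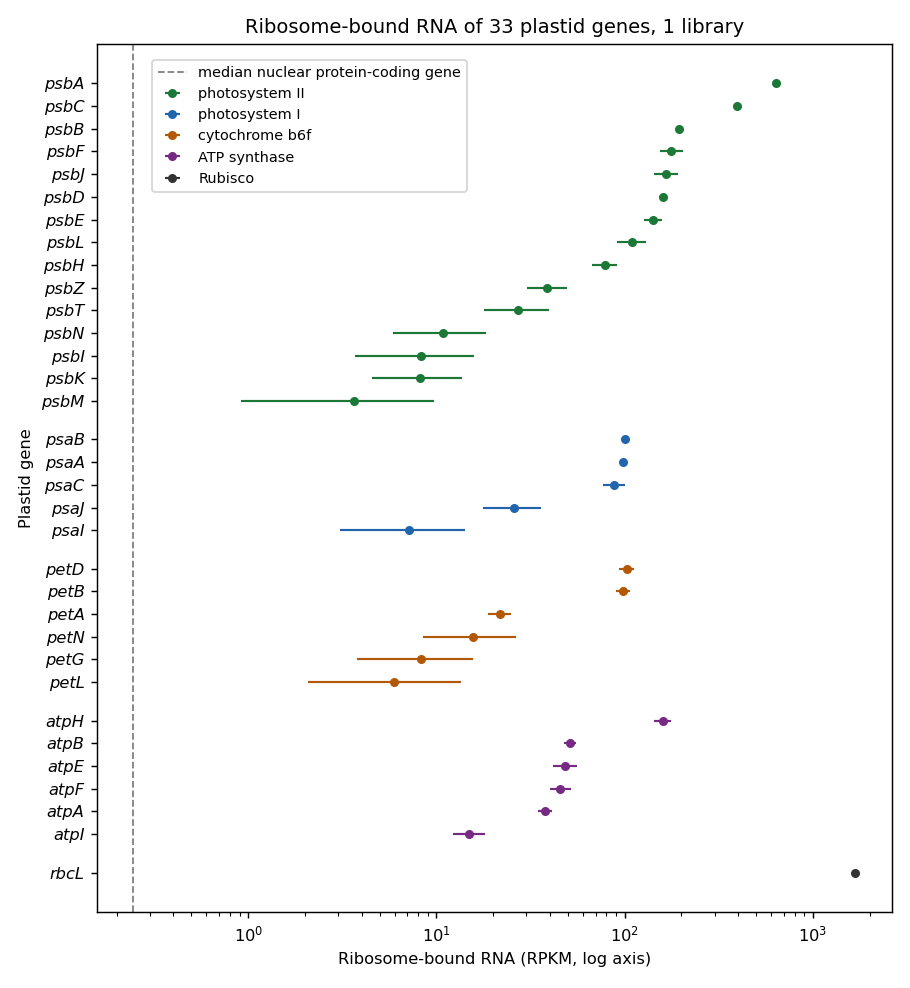
Ribosome-bound RNA of the 33 plastid genes, in RPKM on a log axis, by complex; points are the deposited values of 1 library, bars are 95% counting intervals, and the dashed line is the median nuclear gene at 0.246 RPKM. Every gene lies to the right of the line, rbcL is highest at 1678 RPKM and psbM lowest at 3.65 RPKM.

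The gene of the Rubisco large subunit, rbcL (ATCG00490), lies at bases 54958 to 56397 of the plastid plus strand (TAIR10.1) and ranked 2 among all genes of the table. It had 32716 clones, 23131 after weighting, and 1678 RPKM (1656 to 1699.5). It alone held 47.6% of the weighted clones on the 33 genes, and without it the pooled level of the other 32 was 139 RPKM (138 to 141). Its level was 2.65 times that of psbA (2.58 to 2.72), the next gene.

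Photosystem II splits water and starts electron transport. Its 15 plastid genes had a pooled level of 270 RPKM (266 to 275), a median of 109 RPKM and 35.9% of the weighted clones on the 33 genes. The 4 genes of the large chlorophyll-binding core proteins carried most of this, with a pooled 335 RPKM (330 to 340). The other 11 genes together had 73.4 RPKM (69.3 to 77.8).

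Among the core genes, psbA (ATCG00020) was highest. It encodes D1, the reaction-centre protein that is damaged in light and constantly replaced, lies at bases 383 to 1444 of the minus strand, and had 8763 clones, 6440 weighted, and 633 RPKM (618 to 649). Its partner in the reaction centre, D2, is encoded by psbD (ATCG00270), which had 1915 clones, 1618 weighted, and 159 RPKM (151 to 167). The level of psbA was 3.98 times that of psbD (3.77 to 4.21). In the complex the proteins occur in equal numbers. The inner antenna proteins CP43 and CP47 are encoded by psbC (ATCG00280) and psbB (ATCG00680). Their levels were 393 RPKM (383 to 404) from 5354 weighted clones and 195 RPKM (188 to 203) from 2856 weighted clones, a ratio of 2.01 (1.92 to 2.11). The 4 core genes therefore stood in the order psbA, psbC, psbB, psbD, with no overlap between neighbouring intervals.

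The genes psbE (ATCG00580) and psbF (ATCG00570) encode the α and β chains of cytochrome b559, a haem protein at the edge of the reaction centre. They stood at 141 RPKM (127 to 157; 400 clones, 341 weighted) and 177 RPKM (154 to 203; 230 clones, 203 weighted), in the range of psbD. Next to them lie the small membrane subunit genes psbJ (ATCG00550), with 166 RPKM (144 to 191; 224 clones, 196 weighted), and psbL (ATCG00560), with 109 RPKM (90.5 to 130; 134 clones, 122 weighted). Per length, these short genes thus stood within a factor of 1.63 of one another. The intervals of psbE, psbF and psbJ overlapped that of psbD, and psbL lay below it.

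The remaining small photosystem II genes were lower and spread widely. The gene psbH (ATCG00710), of a phosphoprotein needed for assembly, had 78.3 RPKM (66.8 to 91.1; 166 weighted clones), psbZ (ATCG00300), of another small subunit, had 38.9 RPKM (30.3 to 49.1; 70.4 weighted clones) and psbT (ATCG00690), a subunit at the dimer interface, had 27.1 RPKM (17.8 to 39.6; 26.5 weighted clones). Below them lay psbN (ATCG00700) at 10.9 RPKM (5.90 to 18.3), psbI (ATCG00080) at 8.23 RPKM (3.71 to 15.8), psbK (ATCG00070) at 8.18 RPKM (4.54 to 13.6) and psbM (ATCG00220) at 3.65 RPKM (0.920 to 9.70). PsbN is known as an assembly factor and not a subunit, and the other 3 are small subunits. These lowest 4 rested on 13.7, 8.75, 14.6 and 3.67 weighted clones, and their intervals overlap, so their order is not determined at this depth.

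Photosystem I carries electrons from plastocyanin to ferredoxin. Its 5 plastid genes had a pooled level of 94.6 RPKM (91.9 to 97.4) and 9.24% of the weighted clones. The reaction-centre genes psaA (ATCG00350) and psaB (ATCG00340), whose proteins form a heterodimer, had 98.5 RPKM (94.3 to 103; 2587 clones, 2125 weighted) and 100.1 RPKM (95.9 to 104; 2478 clones, 2113 weighted). The iron-sulphur protein gene psaC (ATCG01060), which lies elsewhere in the genome among ndh genes, had 88.0 RPKM (76.4 to 101; 252 clones, 207 weighted), and psaA exceeded it by a factor of 1.12 (0.970 to 1.30). The intervals of the 3 genes overlapped. The small subunit genes were lower, psaJ (ATCG00630) at 25.7 RPKM (17.7 to 36.1; 33.2 weighted clones) and psaI (ATCG00510) at 7.18 RPKM (3.07 to 14.2; 7.83 weighted clones).

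The cytochrome b6f complex links the photosystems. Its 6 plastid genes had a pooled level of 57.1 RPKM (54.1 to 60.3) and 2.70% of the weighted clones. Cytochrome b6, encoded by petB (ATCG00720), and subunit IV, encoded by petD (ATCG00730), which each hold an intron, had 98.1 RPKM (90.5 to 106; 791 clones, 609 weighted) and 102 RPKM (93.4 to 112; 604 clones, 474 weighted). The gene of the third large subunit, cytochrome f, was much lower: petA (ATCG00540) had 227 clones, 200 weighted, and 21.7 RPKM (18.8 to 24.9), or 0.221 of the level of petB (0.187 to 0.259). The small subunit genes petN (ATCG00210), petG (ATCG00600) and petL (ATCG00590) had 15.7 RPKM (8.46 to 26.5), 8.28 RPKM (3.79 to 15.7) and 5.98 RPKM (2.08 to 13.5), from 13.5, 9.03 and 5.50 weighted clones, with overlapping intervals.

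The ATP synthase has a catalytic head and a membrane-embedded ring that turns as protons pass. Its 6 plastid genes had a pooled level of 46.1 RPKM (44.2 to 48.1) and 4.52% of the weighted clones. The ring subunit c, of which each complex holds many copies, is encoded by atpH (ATCG00140). It had 483 clones, 375 weighted, and 159 RPKM (143 to 176), 4.23 times the level of atpA (3.70 to 4.83).

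The head subunits α and β are encoded by atpA (ATCG00120), at 37.6 RPKM (34.6 to 40.9; 549 weighted clones), and atpB (ATCG00480), at 51.5 RPKM (47.9 to 55.4; 738 weighted clones). The ratio of atpA to atpB was 0.731 (0.653 to 0.817). In the head their proteins alternate in equal numbers. The ε subunit gene atpE (ATCG00470) had 48.1 RPKM (41.4 to 55.6; 184 weighted clones) and atpF (ATCG00130), the b-type stalk subunit gene, 45.5 RPKM (39.9 to 51.6; 242 weighted clones). The a subunit of the proton channel, encoded by atpI (ATCG00150), was lowest at 14.95 RPKM (12.3 to 18.1; 166 clones, 107 weighted).

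Across the 33 genes, 28 of the 32 neighbours in the order of levels had overlapping intervals, so the order is resolved between groups of genes more than between single neighbours. Level and length went together. The 18 genes under 300 bases had a pooled level of 70.3 RPKM and a median of 26.4 RPKM, and the 15 of 300 bases or more had 274 RPKM and 98.5 RPKM. Spearman's rho between length and RPKM was 0.558 over the 33 genes, which share 1 library. Base composition also moved with level: coding GC ranged from 29.4% for psbT to 45.1% for atpH, with a median of 39.6% against 36.3% for the whole plastid genome, and rho with RPKM was 0.606. The part of length and composition in the levels was not tested.

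Many of these genes are known to be transcribed together, and 17 neighbouring pairs in 8 transcription units were compared. Because RNA was fragmented after purification, a ribosome on any gene of a polycistronic RNA can carry the neighbouring genes into the library. Of the 17 downstream genes, 7 were higher than the gene upstream of them, 5 were lower, and 5 had an interval of the ratio that held 1. The pairs that could not be told apart were psaA and psaB, petB and petD, atpB and atpE, psbK and psbI, and petL and petG. For psaB over psaA the ratio was 1.02 (0.957 to 1.08), and for petD over petB it was 1.04 (0.924 to 1.18), both narrow. For psbI over psbK it was 1.006 (0.382 to 2.49) and for petG over petL 1.38 (0.429 to 4.95), which leaves room for large differences. For atpE over atpB, which overlap by 4 bases, it was 0.934 (0.790 to 1.10), and 1.15 (0.993 to 1.32) in plain clones.

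The largest steps lay in 3 units. In the unit atpI-atpH-atpF-atpA, atpH exceeded atpI by a factor of 10.6 (8.56 to 13.3), or 8.87 (7.42 to 10.6) in plain clones. The level fell again to atpF, at 0.286 of atpH (0.242 to 0.337). From atpF to atpA the ratio was 0.828 (0.710 to 0.967). In the unit psbD-psbC-psbZ, psbC exceeded psbD by a factor of 2.47 (2.34 to 2.61), the pair with the overlap printed above, and psbZ stood at 0.0989 of psbC (0.0770 to 0.125).

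In the unit psbB-psbT-psbH-petB-petD, the short gene psbT formed a dip. Its level was 0.139 of that of psbB (0.0909 to 0.203), and psbH downstream exceeded psbT by a factor of 2.89 (1.91 to 4.53). From psbH to petB the ratio was 1.25 (1.05 to 1.50). The gene psbN lies on the opposite strand between psbT and psbH and had 0.401 of the level of psbT (0.193 to 0.797). The labels and headers do not say whether counting used strand, so reads of psbN and of the RNA that crosses it cannot be told apart.

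The 4 genes of the unit psbE-psbF-psbL-psbJ stayed within a factor of 1.63 of each other. Single steps there were psbF over psbE at 1.25 (1.05 to 1.50), psbL over psbF at 0.615 (0.488 to 0.774) and psbJ over psbL at 1.53 (1.21 to 1.93). In the unit petL-petG-psaJ, psaJ exceeded petG by a factor of 3.11 (1.46 to 7.37). Genes of one unit thus ranged from level within counting error to 10.6-fold apart in weighted clones.

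**Figure D2:**
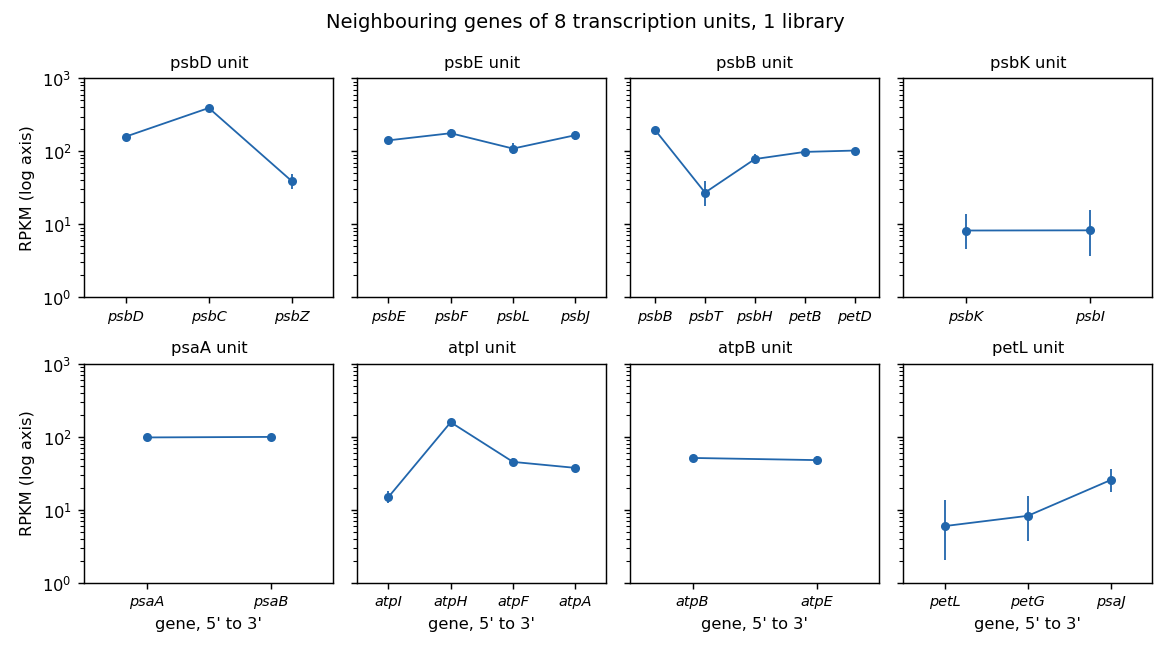
Ribosome-bound RNA of neighbouring genes in 8 transcription units, in RPKM on a log axis, in 5′ to 3′ order; points are the values of 1 library and bars are 95% counting intervals. The psaA unit and the atpB unit are flat, and atpH rises 10.6-fold above atpI (8.87-fold in plain clones).

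The nucleus encodes the remaining subunits of each complex, and 31 of their genes were compared. The plastid genes of each complex had the higher pooled level. The ratio of plastid to nuclear pooled RPKM was 12.8 for photosystem II (12.2 to 13.5), 7.52 for photosystem I (7.05 to 8.04), 5.21 for the b6f complex (4.46 to 6.10), 10.9 for the ATP synthase (9.23 to 13.1) and 57.6 for Rubisco (54.1 to 61.4). Listed lengths of plastid genes are coding sequences and those of nuclear genes are whole mRNAs. With nuclear levels per coding length, the ratios were 8.49, 4.94, 3.14, 7.72 and 34.3 in the same order.

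Single genes did not all follow the pooled ratio. In the ATP synthase all 6 plastid genes lay above the highest nuclear partner, ATPD, the δ subunit gene, at 6.44 RPKM, and the lowest partner was ATPG at 2.08 RPKM. In photosystem II, 8 of 15 plastid genes lay above the highest partner, PSBR at 84.3 RPKM, and the lowest partner was PSBY at 4.04 RPKM. In photosystem I it was 3 of 5, with partners from PSAD2 at 1.88 RPKM to PSAL at 28.9 RPKM. In the b6f complex it was 4 of 6, with PETM at 9.57 RPKM and PETC, the Rieske iron-sulphur protein gene, at 12.1 RPKM. The ratio of medians was 1.73 there, against 7.80 and 8.99 in photosystems II and I. These counts and ratios of medians use whole mRNA lengths for the nuclear genes and were not repeated per coding length. Nuclear levels per coding length are higher, so the ratios of medians would be lower. The counts would be lower in photosystem II and the b6f complex, where PSBR would lie above psbL and PETM above petN. For PETM the mRNA has 769 bases and the coding sequence 378, and for PETC 1004 and 690.

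The 4 Rubisco small subunit genes ranged from 18.8 RPKM for RBCS2B to 38.0 RPKM for RBCS3B. They are near-identical copies and their clones carried low weights, from 0.345 to 0.613 per clone. Their levels are therefore uncertain gene by gene. In plain clones the ratio of rbcL to the small subunit genes was 35.8.

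**Figure D3:**
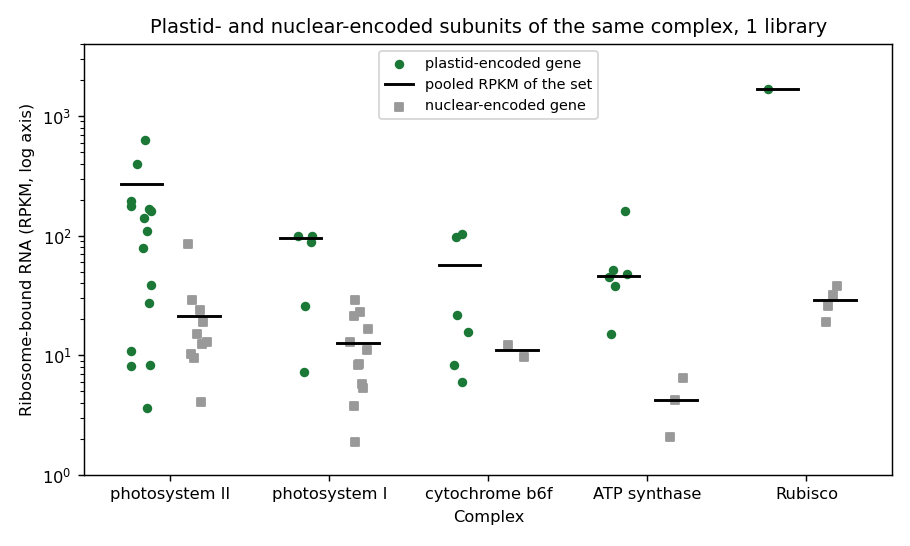
Ribosome-bound RNA of plastid-encoded (circles) and nuclear-encoded (squares) subunit genes of each complex, in RPKM on a log axis; each point is 1 gene in 1 library and black lines are pooled levels. All 6 plastid atp genes lie above the nuclear partners, whereas photosystem II genes span the nuclear range, from 3.65 to 633 RPKM.

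The 33 genes took 94.3% of the weighted clones on the 88 plastid entries of the table, over 25.9% of their listed length. Genes in the inverted repeat, a stretch that the plastid genome holds in duplicate, can be listed once per copy, whereas each of the 33 is listed once. The mean weight per clone was 0.652 in the other 55 entries and 0.757 in the 33. How far the duplicate entries lower the levels of the others was not tested. The other 55 had a pooled level of 5.23 RPKM (5.05 to 5.43). The 12 entries of the NDH complex, which takes part in cyclic electron flow, had a pooled 6.67 RPKM (6.19 to 7.18) and a range of 1.83 to 14.1 RPKM. The 30 entries of plastid ribosomes, RNA polymerase and other gene expression proteins had 7.22 RPKM (6.85 to 7.61) and ranged from 0 to 145 RPKM. Of the 20 highest plastid genes, 19 were photosynthesis or ATP synthase genes. The exception was rps14, the gene of a small-subunit ribosomal protein that follows psaB in the same unit, at 145 RPKM (131 to 159), 1.45 times psaB (1.30 to 1.61). The lower members, from psbN down, lay among the NDH and gene expression genes.

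The weight per clone differed between genes. Its mean per gene ranged from 0.625 for psbI to 0.917 for petL, with a median of 0.821. Copies of plastid DNA are known in the nuclear and mitochondrial genomes of Arabidopsis, and 19 of the 33 genes shared at least one stretch of 20 bases with sequence outside the gene. Other plastid genes were not searched, so whether this count is particular to the 33 was not tested. The share of a gene's 20-base stretches found elsewhere was 39.1% in atpI, 34.4% in rbcL, 24.3% in psbA, 21.6% in atpH and 16.1% in petB. In rbcL, 25.6% of stretches were found on chromosome 2 and 26.5% in the mitochondrial genome.

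The 4 genes with the most shared sequence had mean weights of 0.647, 0.707, 0.735 and 0.776, all below the median. Across all genes the relation was weak, with a rho of -0.176 over the 33. The median weight was 0.845 in genes with shared stretches and 0.812 in the 14 without. The gene with the lowest weight, psbI, had none, but its weight rests on 14 clones. Of the 14 genes, petD had the most clones, 604, and a weight of 0.784. None of the 14 is longer than atpF at 555 bases, so this split also follows length. Weighting lowered rbcL from 2373 to 1678 RPKM and psbA from 862 to 633 RPKM. In plain clones psbC and psbB came next, at 461 and 229 RPKM, so the 4 highest genes were the same.

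**Figure D4:**
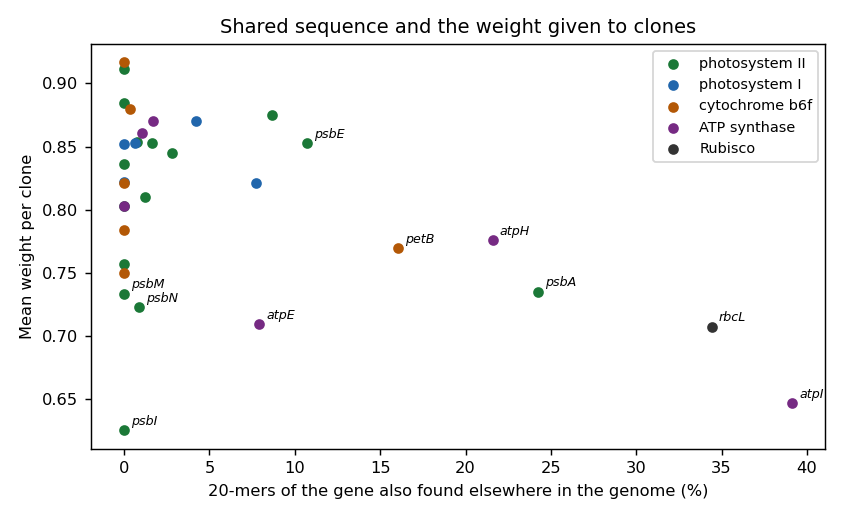
Mean weight per clone against the share of 20-base stretches of the gene that are found elsewhere in the genome (%), 1 point per gene, coloured by complex. The genes atpI, rbcL, psbA and atpH, at 21.6% or more, lie at weights of 0.647 to 0.776. Genes near 0% span 0.625 (psbI, 14 clones) to 0.917 (petL, 6 clones).

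The single-stranded RNA library was deposited as a list of hotspots, each an interval on 1 strand of the genome with a score. Its label names a nuclease for double-stranded RNA together with RNase ONE, which is known as an enzyme that digests single strands, and the library is therefore called by its name alone. The plastid genome held 143 hotspots. Of these, 29 lay on the coding strand of 14 of the 33 genes and covered 2255 bases, 110 bases per kilobase. The 44 other plastid protein-coding genes, counted once each, held 28 hotspots on 15 genes, 43.3 bases per kilobase. The other plastid entries also had a lower pooled ribosome-bound level, 5.23 RPKM against 247.5 RPKM. The part of RNA level in the hotspot difference was not tested. One further hotspot of 75 bases lay on the opposite strand of psaA.

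Hotspots were found in all complexes. Photosystem I had the most per length, with 9 hotspots on 3 genes and 142 bases per kilobase, followed by rbcL with 117, photosystem II with 112, the ATP synthase with 86.1 and the b6f complex with 85.2. The reaction-centre gene psaA held 5 hotspots and 335 bases, psbC 4 and 298 bases, psaB 3 and 264 bases, and petB 3 and 182 bases. The genes psbA, psbB, rbcL and atpA held 2 each. Thus the long core genes carried most of the hotspots, and 19 genes had none, among them psbD, petD and petA.

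Single hotspots were 51 to 203 bases long. The longest was the single hotspot of atpB, 190 bases into the gene. In rbcL the hotspots began 95 and 1102 bases after the first base of the start codon. One hotspot of psaA crossed the start codon, from 67 bases before it, and was the only one of the 29 to do so. The most negative scores, taken here as the strongest, were -3.54 on psbB and -3.53 on psbC.

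A high ribosome-bound level did not go with hotspots in every gene. Among the 15 genes of 300 bases or more, 11 had a hotspot, and rho between RPKM and hotspot bases per kilobase was 0.350. The gene psbD, at 159 RPKM, had none and psbC, its neighbour at 393 RPKM, had 4. Of the 18 shorter genes, 3 had one: psaC, psbL and petL. The list holds only intervals of at least 51 bases, so a gene with none is not shown to lack single-stranded RNA, and the short genes leave little room for one.

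**Figure D5:**
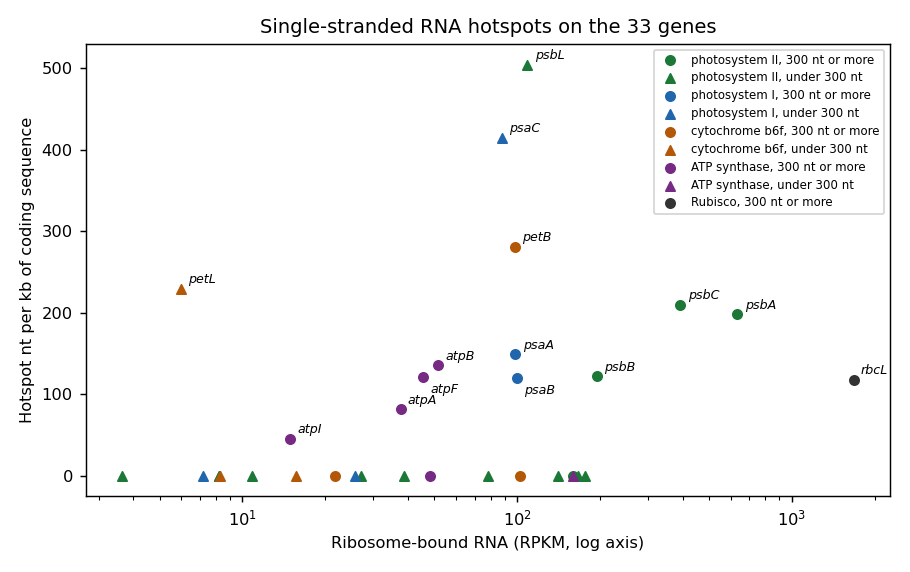
Hotspot bases per kilobase of coding sequence against ribosome-bound RNA (RPKM, log axis), 1 point per gene, with circles for genes of 300 bases or more and triangles for shorter ones. The 14 genes with a hotspot are named; psbA, psbC and rbcL lie to the right, and 19 genes lie at 0.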

How the data were processed

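The submitters' processing notes name Bowtie 0.12.7, cutadapt 0.9.5 and build TAIR9. The deposited table gives, per the file headers, a count of clones, an estimated count in which the authors weighted clones, RPM, RPKM, transcript length and total mapped clones. No label or header states the weighting rule. The authors' hotspots carry a deposited score of unstated formula.

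RPKM was used as deposited. It equals weighted clones scaled to listed length and total mapped clones. Pooled levels are summed weighted clones over summed length. Intervals for ratios are exact conditional binomial intervals. Both kinds were tested on simulated whole clone counts only, so their coverage for weighted clones was not tested. Of the mapped clones, 3.72% (weighted) fell on genes of the table. For ranks and for shares of the table's clones, the transcript of a gene with most weighted clones was used. For the nuclear medians, the nuclear percentages and the nuclear partner genes, it was the transcript with the longest coding sequence. Ties there went to the lowest transcript number.

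Gene symbols of the 33 identifiers were assigned through the RefSeq plastid annotation (TAIR10.1). All 33 listed lengths equal the coding length of the named gene. psbA and psbD tie at 1062 bases and were told apart by the rise of locus numbers with position, which held in 30 of 30 steps among the 31 genes of unique length. Hotspot positions were matched to that annotation after a check: 34 plastid hotspots pair exactly across the inverted repeat of TAIR10.1 when positions are read as 1-based and inclusive, and 0 pair when shifted by 1 base. The planned check was the share of hotspot bases on plastid coding sequence of the same strand. It was 48.2% unmoved, and 46.2% and 47.7% after moves of 100 bases either way. After moves of 1000 bases it was 41.8% and 41.6%, and after 10000 bases 25.8% and 30.5%. That share cannot settle small shifts. The identifiers were listed by gene family, and the set of genes and the gene lists were chosen with earlier results of these data known. All 33 genes are named; of the nuclear lists, the highest and lowest. Python 3.11.15, numpy 2.4.6, scipy 1.17.1 and pandas 2.3.3 were used.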

Additional observations from a re-analysis of the deposited data

How the results depend on the processing

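With 1 library per assay there was no replicate to leave out. No paired analysis was possible because each assay has 1 library. Alternatives were compared with the 95% counting interval of the reported value: 33 of 65 stayed inside it and 32 moved. Many of the 33 could not have moved, so this count does not measure stability. All 33 listed lengths equal the RefSeq coding length and all 33 genes have a mean weight of at least 0.5. Those settings therefore leave the plastid levels as they were. All 25 plastid to nuclear ratios, the reported ones included, were above 1.

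With plain clones, pooled levels moved to 327 RPKM (all 33), 336 (photosystem II), 113 (photosystem I), 72.3 (b6f), 56.6 (ATP synthase) and 2373 (rbcL). The median moved to 67.8 RPKM, its fold over the nuclear median to 146, the Rubisco ratio to 35.8 and the share of the table's clones from 13.6% to 6.45%. That share was 0.507% of all mapped clones. With RefSeq coding lengths, the fold was 162 and the ratios were 8.49, 4.94, 3.14, 7.72 and 34.3 for photosystem II, photosystem I, b6f, ATP synthase and Rubisco. With genes of at least 10 weighted clones, pooled levels were 254 (all), 279 (photosystem II) and 61.9 RPKM (b6f), the median 93.0 RPKM and the fold 79.6, since low genes leave both sides. With a mean weight of at least 0.5 the fold was 130 and the Rubisco ratio 53.1. With lengths of at least 300 bases, pooled levels were 274 (all), 335 (photosystem II), 99.3 (photosystem I), 63.9 (b6f) and 40.2 RPKM (ATP synthase), the median 98.5 RPKM and the fold 401. With nuclear genes at 0 included, the fold was 265. Hotspot bases were 1580 with only scores more negative than the median of all hotspots, taken as better. They were 2191 with at least 50% of the hotspot on the gene, against 2255 as reported. Depth limits the 5 genes under 10 weighted clones, petG, psbI, psaI, petL and psbM, most.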
